A study of Mus musculus with 3 samples.

Results

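Genes of the cytosolic ribosomal proteins were followed across 3 Affymetrix arrays of mouse blood progenitors. The members were the genes whose annotated symbol is Rpl or Rps with a number and at most 1 further letter, together with the stalk genes and Rpsa, each read on its brightest probe set among those paired with a single gene symbol. The pattern leaves out the S6 kinases and the mitochondrial ribosome. It gave 46 genes of 18193, and 42 of the 46 passed a filter that asks for an intensity at or above the array's median on at least 1 array. The 42 that passed were 21 of the large subunit and 21 of the small subunit. The rule itself uses symbols, and intensity enters only through the choice of the brightest probe set.

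The 3 arrays held RNA of Sca-1-positive, lineage-negative marrow fractions from mice aged 10 weeks on the C57BL/6J background, a population enriched for stem and progenitor cells. The wild type array stood for unmodified C57BL/6J mice. A second array held cells of the transgenic genotype Tg(Ly6a-KDM1A*v2, Line 6. The third held the other genotype of that name, Tg(Ly6a-KDM1A*v2, Line 3. The construct name joins Ly6a, the gene of Sca-1, to KDM1A, the gene of the histone demethylase LSD1; the promoter and the cells that express it are not described in the labels. The cell sort therefore used the product of the gene named in the construct. All 3 samples shared strain, age, sort and labelling, and the labels do not state their sex. The series text speaks of 2 transgenic mice, and how many animals stand behind the wild type array is not said. Transcripts of both a silenced X and a Y chromosome were read on every array, as given further below. The number and sex of the animals behind each array are therefore not settled here. Each genotype had 1 array, so the differences below have no replicate error, no standard error and no p-value, and the number of arrays limits their precision. Below, intensities are listed in the order wild type, Line 6, Line 3, and pairs of differences from wild type in the order Line 6, Line 3.

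A cytosolic ribosome joins a small subunit, which reads the mRNA, to a large subunit, which forms the peptide bond, and each is built from ribosomal RNA and a single copy of most of its proteins. Mammalian cells make these proteins at nearly matched rates, in part because their mRNAs start with a pyrimidine tract that links translation to mTORC1 through Larp1. Blood formation is sensitive to this supply: loss of 1 copy of RPS19 and other ribosomal protein genes causes Diamond-Blackfan anaemia in people, and haematopoietic stem cells keep a low rate of protein synthesis.

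Almost all of the genes read slightly higher in both transgenic lines than in wild type, and none of the 42 differed by 2-fold in either line. In Line 6, 39 of the 42 lay above wild type on the deposited scaling but 4 after each array was centred on its median; in Line 3 the counts were 39 and 35. The size was small. The median difference, on the log2(intensity + 16) scale used throughout, was 0.11 in Line 6 and 0.16 in Line 3, against 0.06 and 0.12 over all 10864 genes tested. After centring, the Line 6 median was -0.13 for these genes and -0.17 for all genes, and the Line 3 medians were 0.13 and 0.09. Centring lowers every Line 6 difference given below by 0.24 and every Line 3 difference by 0.04, so a Line 6 value between 0 and 0.24 turns negative under it. Because 1 wild type array serves both lines, their counts are not independent of each other.

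Over all genes tested, 57.6% lay above wild type in Line 6 and 60.6% in Line 3 on the deposited scaling, and 29.6% and 57.8% after centring. Differences of 2-fold or more were found in 4.98% of all genes in Line 6 (2.57% higher, 2.41% lower), 8.03% in Line 3 (3.57% higher, 4.46% lower) and 3.42% in both lines in a single direction, against 0 of 42 ribosomal protein genes in each case. Few of these genes passed even a limit of 1.2-fold. In Line 6, 4 were higher by that limit and 1 lower, where the shares of all genes were 27.3% and 18.5%. In Line 3, 7 were higher and 1 lower, against 37.4% and 21.1%. The middle 50% of the ribosomal protein genes spanned 0.06 to 0.17 in Line 6 and 0.08 to 0.22 in Line 3, while for all genes the span was -0.17 to 0.29 and -0.20 to 0.42.

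**Figure D1:**
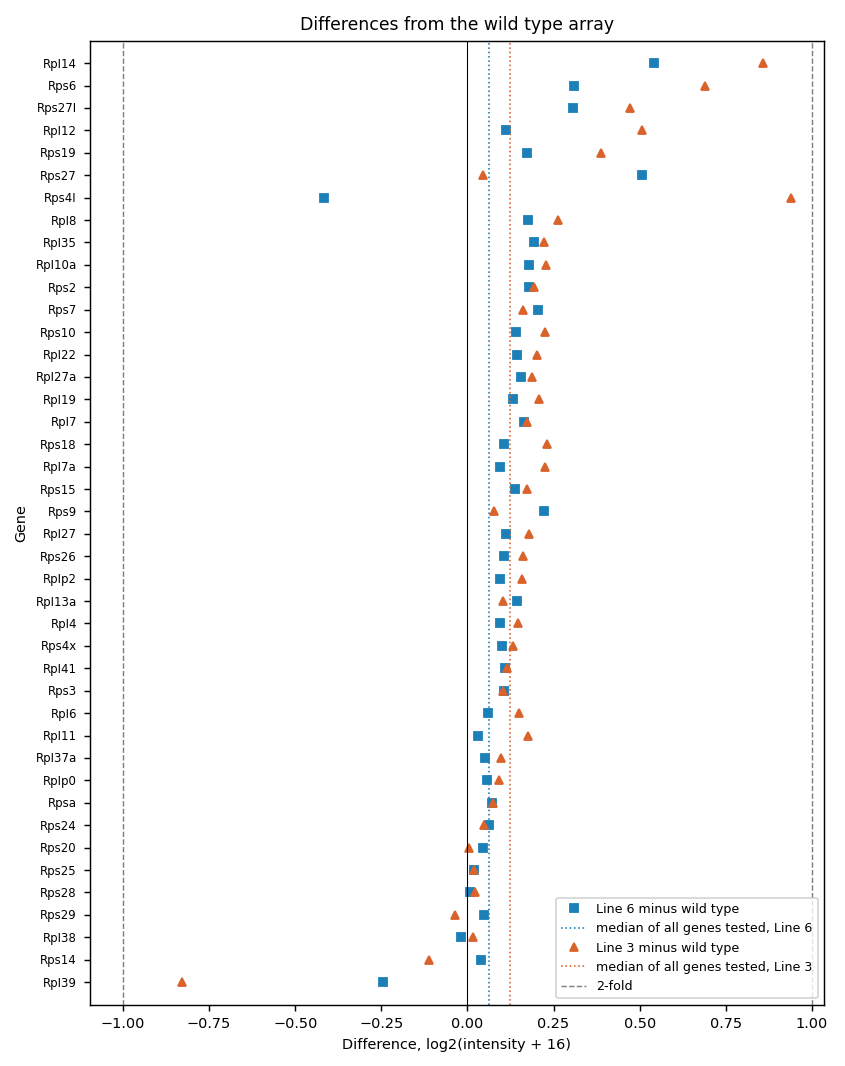
Difference of each line from the wild type array, in log2(intensity + 16), for the 42 ribosomal protein genes that passed the filter, ordered by the mean of both differences; squares are Line 6, triangles Line 3, dotted lines the medians of all genes tested and dashed lines 2-fold. Most points lie between 0 and 0.25, with Rpl14, Rps6 and Rps27l to the right in both lines, Rpl39 to the left, and Rps4l on opposite sides; centring on array medians moves every Line 6 point down by 0.24, so that 4 of 42 stay above 0.

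The narrow spread was read beside that of bright genes, a set that reaches lower intensities than most ribosomal protein genes have. A comparison by probe set at closer brightness is given further below. On each array 32 or 33 of the 46 probe sets were in the top 1% of intensities, and together the 46 held 1.5% of the summed intensity on the wild type array, 1.62% on that of Line 6 and 1.66% on that of Line 3. Among 2709 genes whose mean log2 value reached percentile 90 of all probe sets, the median differences were 0.02 in Line 6 and 0.04 in Line 3. The 35 ribosomal protein genes in that set had medians of 0.11 and 0.16, or 0.09 and 0.12 more. Of the 35, 34 were above wild type in Line 6 and 33 in Line 3, against 53.9% and 54.7% of the bright genes, again on the deposited scaling and without a test. Of the 35, 1 (Rps27l) was higher by 1.2-fold in Line 6 and 0 were lower, against 11.4% and 16.2% of the bright genes. In Line 3 the counts were 3 and 0, against 23.8% and 21.2%. Between the lines, on the deposited scaling, 27 of the 35 were higher in Line 3, against 53.5% of the bright genes. On that scaling 0 passed 1.2-fold either way, against 11.0% higher and 10.4% lower. The log2 median of the Line 3 array lay at -0.20 from that of Line 6. Centring removes this shift and so raises every Line 3 minus Line 6 difference. After it Rpl11, Rps19 and Rps27l, all among the 35, stood at 0.35, 0.41 and 0.37, past 1.2-fold. The count of 0 therefore does not hold after centring, and full 1.2-fold counts after it were not made.

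On the deposited scaling the lines themselves were close to each other for these genes. Line 3 minus Line 6 had a median of 0.04, against 0.05 over all genes, and 31 of 42 genes were above 0, where 56.5% of all genes were; after centring the medians were 0.24 and 0.25, with 40 of 42 and 78.9% above 0. A single gene, the paralogue Rps4l, passed 2-fold, where 2.29% of all genes did (0.709% higher in Line 3, 1.58% lower). At 1.2-fold, on the deposited scaling, 4 genes were higher in Line 3 and 2 lower, against 22.6% and 16.6%. Centring raises each of these differences. Rpl11, Rps19 and Rps27l passed 1.2-fold after centring and not before it, and full 1.2-fold counts after it were not made. The large subunit had medians of 0.11 in Line 6, 0.18 in Line 3 and 0.05 between the lines, and the small subunit had 0.11, 0.13 and 0.01. After centring the Line 6 medians of the subunits were -0.12 and -0.13.

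**Figure D2:**
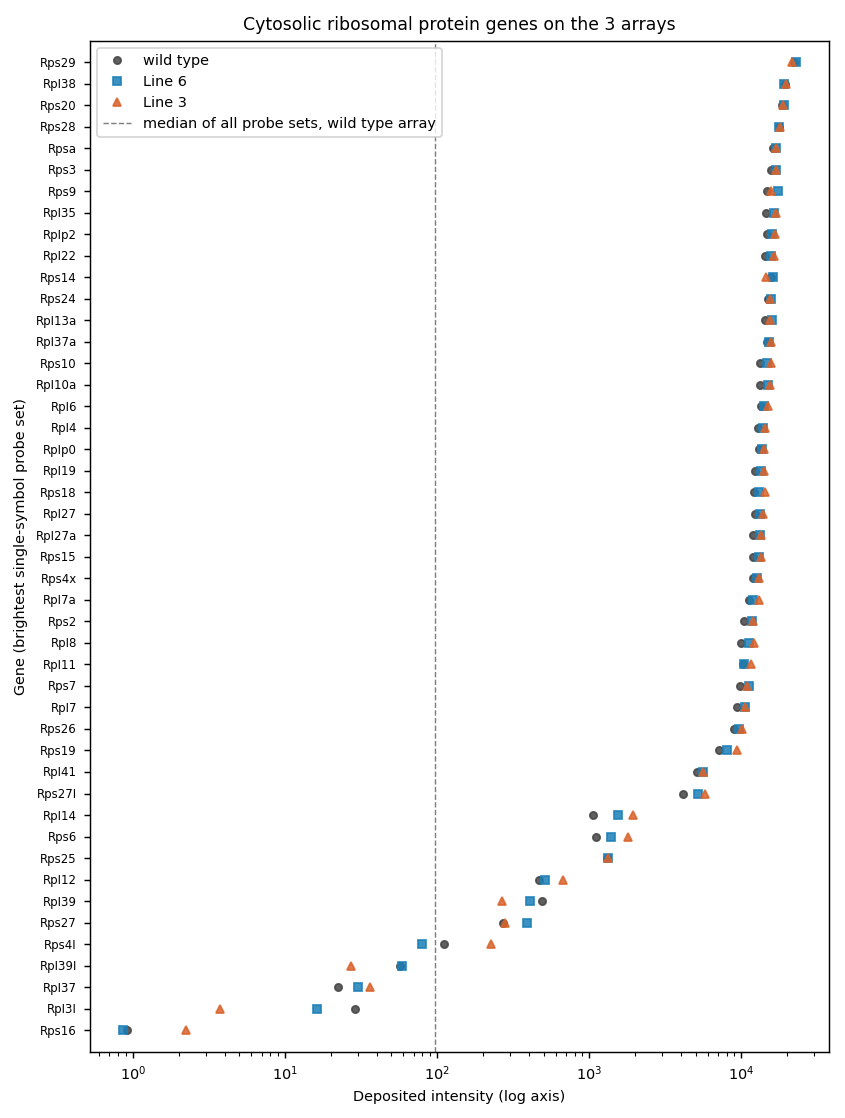
Deposited intensity, on a log axis, of the brightest single-symbol probe set of each of the 46 genes on the 3 arrays (circles wild type, squares Line 6, triangles Line 3), with the median of all probe sets of the wild type array as a dashed line. Most genes sit near or above 10000 with the 3 symbols nearly on top of each other, and 4 genes lie below the median on all arrays. Probe sets differ in how they respond to a transcript, so the order of genes is not an order of mRNA amounts.

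The 5 brightest genes had small differences on their brightest probe sets. Rps29, a small zinc-binding protein of the small subunit, read 22042, 22772 and 21496. Rpl38, a large subunit protein needed for patterning of the mouse skeleton, read 19431, 19169 and 19661. Rps20 read 18617, 19190 and 18665. On these probe sets the arrays lay close together, with differences from wild type of 0.05 and -0.04 for Rps29, -0.02 and 0.02 for Rpl38, and 0.04 and 0.00 for Rps20. Other probe sets of the same genes gave other values: a second Rps29 probe set at 17468, 19003 and 19664 gave 0.12 and 0.17, and a dim one of Rps20 at 250, 245 and 333 gave -0.03 and 0.39. Rps28 was flat, at 17677, 17782 and 17949. Rpsa, also known as the laminin receptor, read 16038, 16839 and 16875, differences of 0.07 in each line.

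The stalk of the large subunit recruits the elongation factors and activates their GTPases. Rplp0, the stalk's base, read 13134, 13653 and 13994, differences of 0.06 and 0.09. Rplp2, which binds Rplp0 as a dimer with Rplp1, read 14833, 15849 and 16557, or 0.10 and 0.16. Wild type was the lowest array for both genes on the deposited scaling, and Line 6 became the lowest after centring, at -0.18 and -0.14 from wild type. Rplp1 had no single-symbol probe set and has no value here.

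Rpl11, which with Rpl5 carries a small ribosomal RNA into the large subunit and can bind Mdm2 to stabilise p53, read 10179, 10392 and 11502. Its differences were 0.03 in Line 6 and 0.18 in Line 3, and Rpl5 was on no single-symbol probe set. Rpl13a, a protein known from translational silencing of inflammatory mRNAs, read 14336, 15833 and 15401, or 0.14 and 0.10. Rpl22, whose loss in mice blocks alpha-beta T cell development, read 14229, 15725 and 16371, or 0.14 and 0.20. Rpl7 was similar at 9399, 10537 and 10602, or 0.16 and 0.17. For these 4 genes wild type held the lowest value, and after centring the Line 6 value lay below it in each, at -0.21 for Rpl11, -0.09 for Rpl13a, -0.09 for Rpl22 and -0.07 for Rpl7.

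Genes tied to inherited or acquired anaemia differed among themselves. Rps19, the gene most often altered in Diamond-Blackfan anaemia, read 7138, 8053 and 9339, differences of 0.17 and 0.39. After centring, its Line 6 difference was -0.06. Rps26, another Diamond-Blackfan gene, read 8947, 9637 and 10017, or 0.11 and 0.16. Rps24, also a Diamond-Blackfan gene, read 14982, 15653 and 15505, or 0.06 and 0.05. Rps14, whose loss accounts for the anaemia of a myelodysplastic syndrome, read 15678, 16127 and 14512, so that Line 3 was the lowest array, at -0.11. A second Rps14 probe set placed wild type lowest, at 9221, 10222 and 10486, and the Line 3 difference of Rps14 was 0.04 with the median of both. Rpl35a, also a Diamond-Blackfan gene, had no single-symbol probe set.

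Of the 8 genes highest above wild type by the mean of both lines, 7 were read at a mean below 10000 and Rpl8 above it. Rpl14, of the large subunit, read 1056, 1544 and 1927. Its differences of 0.54 and 0.86 were the largest mean of both lines. Rps6, the small subunit protein phosphorylated by the S6 kinases, read 1113, 1382 and 1807, or 0.31 and 0.69. Rps6 had a second, dim probe set at 35.5, 44.1 and 64.3, which gave 0.22 and 0.64. Rpl12, which lies at the base of the stalk, read 470, 509 and 675, or 0.11 and 0.51. In Rpl14, Rps6 and Rpl12 the order was wild type, Line 6, Line 3, and after centring Rpl14 and Rps6 kept that order while Rpl12 in Line 6 lay at -0.12 from wild type. Rpl8 read 10003, 11300 and 12011, or 0.18 and 0.26, with -0.06 in Line 6 after centring.

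Start-site sequences are shown for the 8 genes with the tract and for 2 that lack it, because the tract is the sequence feature this family is known for. Each stretch holds 15 bases before the annotated start and 15 from it on, so the start is base 16, and it comes from RefSeq's GRCm38.p6 promoter table. Capitals mark the longest run of 6 or more C or T that reaches the start region. The genes with the tract include high members (Rpl14, Rps6) and a flat one (Rpl38), and the last 2 stretches, Rpl39 and Rps28, lack it.
Rpl14: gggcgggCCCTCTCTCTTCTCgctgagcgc
Rps6: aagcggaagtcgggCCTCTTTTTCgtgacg
Rpl35: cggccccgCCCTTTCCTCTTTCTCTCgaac
Rplp2: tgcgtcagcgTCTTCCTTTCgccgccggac
Rps27: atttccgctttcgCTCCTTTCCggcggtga
Rpl38: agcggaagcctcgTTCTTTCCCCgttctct
Rps10: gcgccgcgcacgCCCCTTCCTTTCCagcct
Rps18: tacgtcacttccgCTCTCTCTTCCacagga
Rpl39: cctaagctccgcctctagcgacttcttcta
Rps28: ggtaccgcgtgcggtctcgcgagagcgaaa
These stretches lie at chr9:120571502-120571531 (plus strand) for Rpl14, chr4:86857353-86857382 (minus) for Rps6, chr2:39005117-39005146 (minus) for Rpl35, chr7:141447636-141447665 (plus) for Rplp2, chr3:90213634-90213663 (minus) for Rps27, chr11:114668565-114668594 (plus) for Rpl38, chr17:27635230-27635259 (minus) for Rps10, chr17:33955651-33955680 (minus) for Rps18, chrX:37085208-37085237 (minus) for Rpl39 and chr17:33824548-33824577 (minus) for Rps28. The start used for Rpl38 is not the gene start of the RefSeq gene table; the others are.

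The promoter table held 40 of the 46 genes, and not Rpl7, Rpl8, Rps14, Rps20, Rps29 or Rps4l. Where it gave several starts, the first was used. A C at the annotated start followed by 4 or more C or T was found in 8 of the 40, against 2.49% of all 27025 genes in the table. The letters CTTTC stood within 20 bases of the start on the gene's strand in 12 of these 40 genes and 5.38% of all genes, and on the other strand in 1 of 40 and 4.70%. Runs that start a few bases off the annotated start are missed by the first count and can be met by the second, and both counts share letters. The 8 genes with the tract had median differences of 0.17 in Line 6 and 0.22 in Line 3, with ranges of -0.02 to 0.54 and 0.02 to 0.86. The 28 tested genes of the table without it had medians of 0.11 and 0.16, with ranges of -0.25 to 0.31 and -0.83 to 0.51. The ranges overlap.

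Around the start, CCGGAAG, the core letters bound by ETS factors, was present on either strand of the 300 bases (250 before and 50 after the start) in 20 of the 40 promoters and in 9.12% of all promoters. Rpl11 is shown because it carries these letters, in capitals, just after its start (chr4:136053379-136053408, minus strand).
Rpl11: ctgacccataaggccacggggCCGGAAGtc
AAGATGGC, the core of the YY1 motif, was present in 2 of the 40 and 2.88% of all. A match of letters is a description of the window and not a bound site.

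Rps4l was the single gene past 2-fold between the lines. It is a paralogue of the X-linked Rps4x, and its only probe set read 111, 78.9 and 227. Line 6 was the lowest array and Line 3 the highest, at -0.42 and 0.94 from wild type and 1.36 from each other. The wild type and Line 6 values were near the array medians of 96.2 and 116. With a pseudocount of 1 the Line 3 difference was 1.03, past 2-fold. Rps4x itself read 11856, 12714 and 13002 on its brightest probe set, or 0.10 and 0.13, and a dim second probe set read 18.9, 30.7 and 11.5.

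The other paralogues differed in how much could be read. Rps27l, a p53 target that resembles Rps27, read 4158, 5146 and 5768, or 0.31 and 0.47. Its other 2 probe sets gave 0.21 and 0.34, and 0.20 and 0.37, so wild type was the lowest array on all 3; after centring, the latter 2 are below wild type in Line 6. Rps27 read 271, 392 and 280, or 0.51 and 0.04, so Line 6 stood above the other 2 arrays. The Line 3 difference of Rps27 was -0.02 after quantile normalization and -0.06 after cyclic loess. Rpl39l and Rpl3l, known from testis and from striated muscle, were below the filter at 57.4, 58.5 and 27.3 and at 28.6, 16.2 and 3.73, where no level can be told from background.

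Rpl39, an X-linked gene of the exit tunnel, was the lowest in Line 3 of the 42 genes that passed the filter. It read 486, 407 and 267, or -0.25 and -0.83, and it has no second single-symbol probe set. Xist, the RNA that coats the silenced X, read 2729, 6152 and 5155 on these arrays, and the Y-linked gene Eif2s3y read 2326, 978 and 1031. Both were well above the array median on every array, so transcripts of a silenced X and of a Y were read on each. Differences from wild type were 1.17 and 0.91 for Xist and -1.24 and -1.16 for Eif2s3y. The balance of these transcripts thus differed between wild type and both lines. The part of sex in the differences of the ribosomal protein genes, Rpl39 and Rps4x among them, was not tested.

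Rpl22l1 and Rpl7l1 fall outside the symbol pattern but resemble Rpl22 and Rpl7. Rpl22l1 read 4772, 5468 and 6578, or 0.20 and 0.46. Rpl7l1 read 1473, 1355 and 1982, or -0.12 and 0.42. Rps3a1 and Fau, which encode ribosomal proteins under names outside the pattern, read 14264, 14729 and 14976 and 12093, 12929 and 12892. Their differences of 0.05 and 0.07 for Rps3a1, and 0.10 and 0.09 for Fau, lay within the range of the members.

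Canonical genes can be missed by their probe sets. Rps16 read 0.914, 0.863 and 2.25 on its only single-symbol probe set, and Rpl37 read 22.1, 30.1 and 36.0. Both are core proteins of every ribosome, and no level can be read from these intensities. Rps25, at 1314, 1333 and 1332, was flat across the arrays. Rps9, a small subunit gene, read 14830, 17302 and 15651, or 0.22 and 0.08, so Line 6 was its highest array. A second Rps9 probe set at 12921, 13864 and 14305 placed Line 3 highest.

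In total the 46 genes had 100 single-symbol probe sets, and 23 genes had more than 1. No other probe set of a gene differed from its brightest one by 1 or more in either line's difference. Of the 46 brightest probe sets, 13 had the suffix _x_at and 1 had _s_at, marks of probes that can match several transcripts, and 17 had _a_at, a mark of transcripts of a single gene. Many ribosomal protein genes have processed copies in the genome, which such probes can also match. With the 21 genes that passed on a plain _at probe set, the medians were 0.11 in Line 6 and 0.19 in Line 3. Of these 21, 16 lay above wild type in Line 6 and 18 in Line 3, against 57.5% and 59.2% of all genes so read. Between the lines 14 of the 21 were above 0, against 54.5%.

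**Figure D3:**
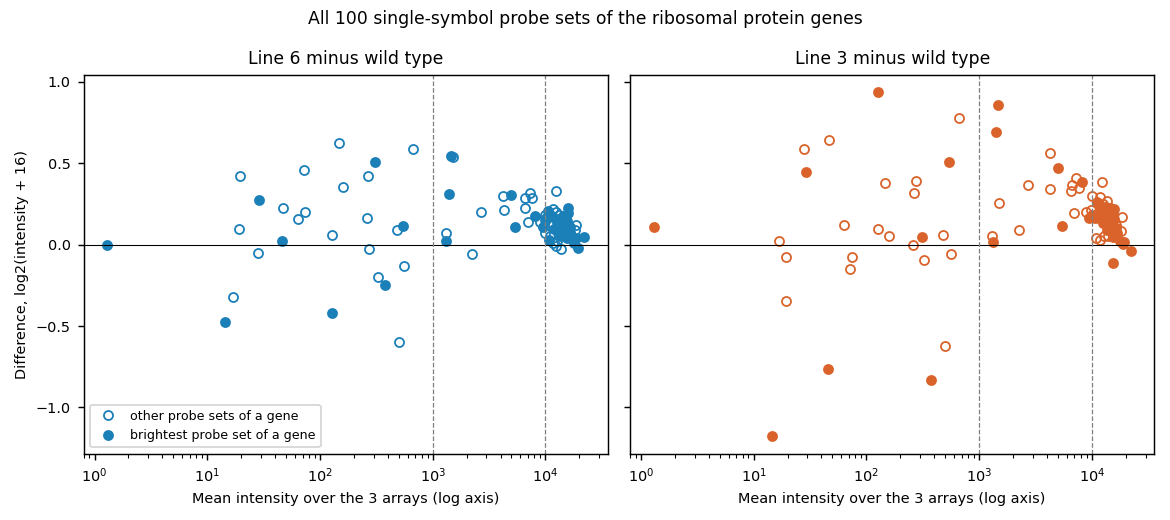
Difference from wild type, in log2(intensity + 16), of all 100 single-symbol probe sets of the 46 genes against their mean intensity on a log axis, for Line 6 (left) and Line 3 (right); filled points are the brightest probe set of a gene, open points the others, and dashed lines stand at 1000 and 10000. The points narrow toward 0 at the right edge, and between 1000 and 10000 nearly all lie above 0 on the deposited scaling.

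By probe set, the median differences were larger at middle intensity than at the top of the scale. From 1000 to 10000, 21 probe sets of these genes had median differences of 0.20 in Line 6 and 0.33 in Line 3, against 0.02 and 0.05 for all 6598 single-symbol probe sets in that range. At 10000 and above, 52 had medians of 0.10 and 0.16, against 0.06 and 0.05 for all 188, which include the 52. Quartiles of the 52 were 0.06 to 0.16 in Line 6 and 0.08 to 0.20 in Line 3. For the 188 they were -0.04 to 0.12 and -0.14 to 0.16. On the deposited scaling 49 and 50 of the 52 lay above 0, against 128 and 111 of the 188. In 19 genes with at least 2 probe sets of 1000 or more, the dimmest of these gave the higher difference in 13 genes in Line 6 and in 15 in Line 3. Rpl13a is an example: its probe set at 3474, 4275 and 5136 gave 0.30 and 0.56, where the brightest gave 0.14 and 0.10. Below 1000 the probe sets scattered. The 15 between 100 and 1000 had medians of 0.09 and 0.06, not above the 0.10 and 0.11 of all 12816 in that range. Among the 11 genes that passed the filter with a mean below 10000, the Line 3 median was 0.39, while the Line 6 median was 0.11, as over all 42. Whether the array's upper range compresses the brightest values was not tested.

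**Figure D4:**
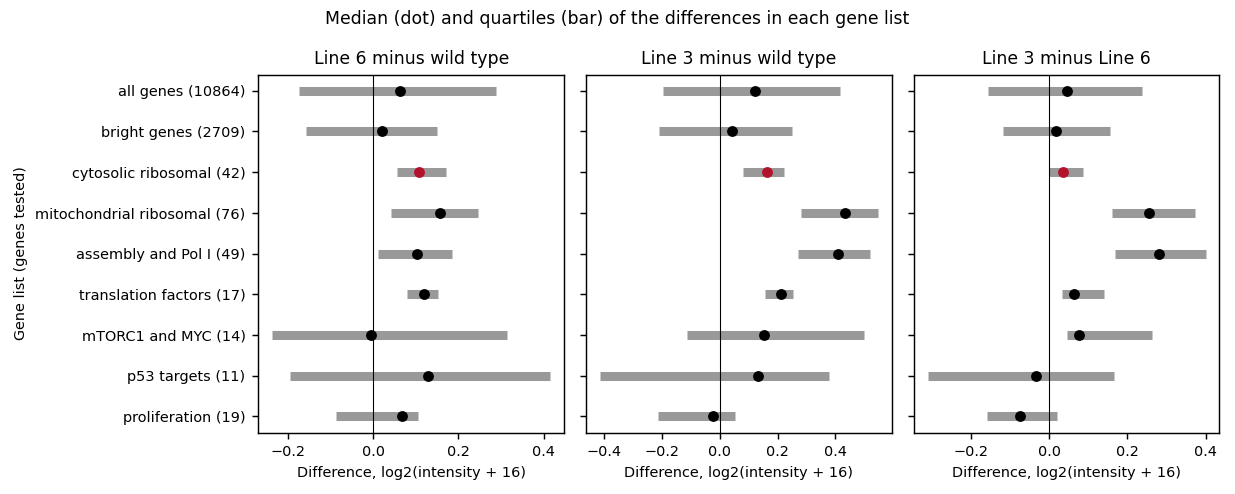
Median (dot) and quartiles (bar) of the differences, in log2(intensity + 16), over the genes tested in each list, for Line 6 and Line 3 against wild type and for Line 3 against Line 6; the cytosolic ribosomal genes are the red dot and bright genes are those at or above percentile 90 of the mean. In Line 3 the mitochondrial ribosomal and assembly lists lie at 0.43 and 0.41, to the right of the cytosolic list at 0.16. The lists were not matched for intensity, and the 11 tested cytosolic genes with a mean below 10000 had a Line 3 median of 0.39. In Line 6 the same lists lie at 0.16, 0.10 and 0.11, and all 3 fall below 0 after centring on array medians.

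Other parts of the translation machinery were read beside the cytosolic ribosome. Elongation factors and other products of tract-bearing mRNAs were close to the ribosomal protein genes. The 17 tested of 18 had medians of 0.12 in Line 6 and 0.21 in Line 3, none passed 2-fold, and Line 6 stood at -0.12 after centring. Eef1a1, the main elongation factor, read 13926, 14475 and 14816, and Eif4b, an initiation factor, read 4439, 5158 and 5410.

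Genes that build ribosomes had a higher median in Line 3 than the ribosomal proteins had, without a test. Of 50 listed factors of ribosome assembly and RNA polymerase I, 49 were tested, and their medians were 0.10 in Line 6 and 0.41 in Line 3. None passed 2-fold, and 37 were higher by 1.2-fold in Line 3, against 37.4% of all genes. Pes1, a factor of large subunit maturation, read 1024, 1171 and 1934, and Gnl3, the nucleolar GTPase nucleostemin, read 1196, 1668 and 2030. Other genes of this list did not have that order. Taf1a, with the largest mean difference of the list, read 229.5, 407.1 and 326.3, or 0.79 and 0.48, so Line 6 was highest. Polr1c read 1968, 2841 and 2893, or 0.53 and 0.55, with the lines close together. For the mitochondrial ribosome, 76 genes were tested, with medians of 0.16 and 0.43, and 3 were at least 2-fold higher in Line 3, against 3.57% of all genes. Mrpl21, at 1123, 1515 and 2294, was among the 3. Line 3 minus Line 6 had medians of 0.25 for the mitochondrial ribosome and 0.28 for assembly factors, and 0.04 for the cytosolic ribosomal proteins. The lists were not matched for intensity. The 11 tested cytosolic genes with a mean below 10000 had medians of 0.39 in Line 3 and 0.16 between the lines. With the filter at percentile 90, the Line 3 medians were 0.16 for cytosolic, 0.30 for mitochondrial and 0.43 for assembly genes. The gap between lists was not tested.

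Regulators of ribosome synthesis differed among themselves. Of 15 listed mTORC1 and MYC genes, 14 were tested, and their medians were -0.01 (Line 6) and 0.15 (Line 3). Mycn, a MYC family gene, read 225, 508 and 634 and was the single one past 2-fold, in both lines, where 3.42% of all genes passed in both. Mycn is also 1 of the listed stem and progenitor markers. Myc read 2254, 2384 and 4060, or 0.08 and 0.84, so Line 3 stood apart. Mlst8, a subunit of both mTOR complexes, read 573, 390 and 431, and was lower in both lines by less than 2-fold. Rptor, another mTORC1 gene of the list, was higher in both, at 376, 466 and 548, or 0.30 and 0.52.

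Targets of p53, which is stabilised when ribosome assembly fails, had values on both sides of wild type. Of 17 listed genes 11 were tested. The 1 gene past 2-fold, in both lines, was Sesn2, a stress-induced inhibitor of mTORC1, at 1014, 442 and 403. Of all genes, 3.42% passed in both lines in a single direction. Pmaip1 was also lower, at -0.74 and -0.78. Perp, at 0.90 and 0.48, and the dim Tnfrsf10b, at 0.75 and 0.93, were higher. Medians over the 11 were 0.13 in both lines. The Line 3 median turned to -0.01 with the median of probe sets and to -0.14 with plain _at probe sets, and the Line 6 median to -0.11 after centring, -0.08 with plain _at probe sets and -0.04 with the filter at percentile 90. Of 20 proliferation genes 19 were tested, with medians of 0.07 and -0.02 and none past 2-fold.

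Cell type markers also differed between the arrays. Of 17 neutrophil markers, 15 were tested, and their summed intensity was 185388, 142262 and 126547. Of 16 stem and progenitor markers, 13 were tested, and the sum was 8918, 14799 and 17950. B cell markers (11 of 12 tested) summed to 3859, 11964 and 4473, macrophage markers (10 of 12) to 12766, 16875 and 19598, T cell markers (7 of 10) to 2243, 3440 and 2785, erythroid markers (7 of 10) to 24893, 27210 and 27040, and mast cell and basophil markers (6 of 11) to 13045, 12143 and 22400. The mast cell gene Tpsab1 was below 16 on all arrays. The sums cover all listed genes with a single-symbol probe set, and a few bright ones carry them. By gene, mast cell and basophil markers had medians of 0.28 and 1.36, with 5 of 6 higher in each line, and T cell markers 0.44 and -0.0039, with 6 and 3 of 7 higher. Median differences were 1.03 and 1.24 for stem and progenitor markers, -0.54 and -0.87 for neutrophil markers, 1.39 and 1.69 for macrophage markers, 1.76 and 0.05 for B cell markers and 0.14 and 0.18 for erythroid markers. Genes listed as markers of mature lineages were thus read after a sort for lineage-negative cells. Whether these transcripts came from lineage-positive cells or from progenitors was not tested. In a mixed sample fewer cells of a type and less RNA per cell cannot be told apart. The part of cell composition in the differences of the ribosomal protein genes was not tested.

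**Figure D5:**
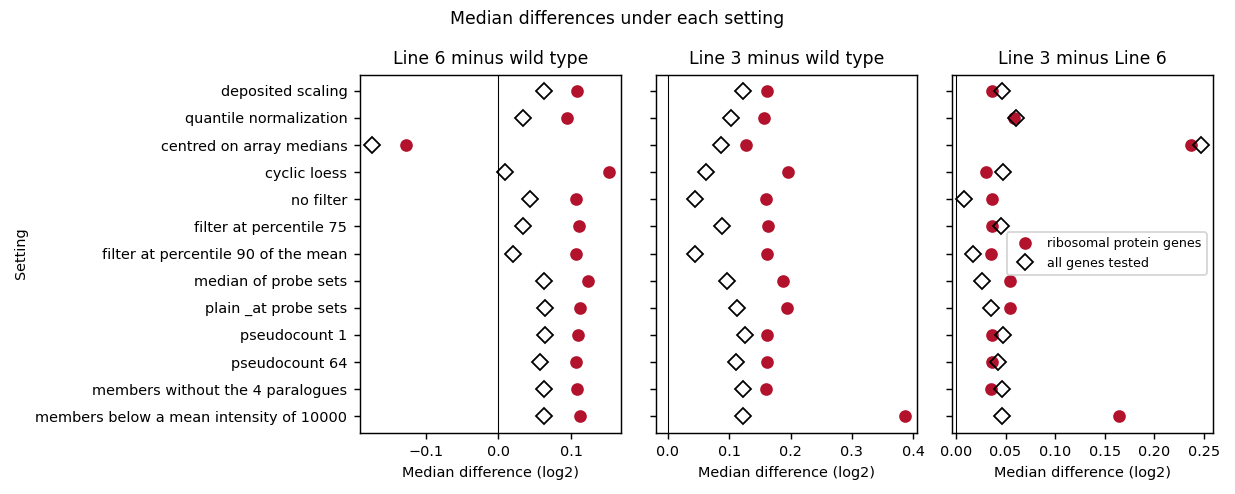
Median difference, on the log2 scale, of the ribosomal protein genes (red dots) and of all genes tested (open diamonds) under each scaling, filter, probe set rule and pseudocount, for the 3 comparisons. In Line 6 the dots lie at 0.09 to 0.15 except after centring on array medians, where dot and diamond both fall below 0; the dots stay to the right of the diamonds in Line 6 and Line 3 under each setting shown.

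The gap between the ribosomal protein genes and all genes was also read under each scaling; centring cannot change it. The ribosomal protein median exceeded that of all genes by 0.05 in Line 6 and 0.04 in Line 3 on the deposited scaling and after centring, by 0.06 and 0.05 after quantile normalization and by 0.14 and 0.13 after cyclic loess. Between the lines the gap was -0.01, 0.00 and -0.02 under these scalings. Without a filter, where all 46 genes count, the gaps were 0.06, 0.12 and 0.03.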

How the data were processed

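Total RNA (Trizol) was amplified, biotin-labelled and hybridised to Affymetrix arrays, per the labels' protocols. The deposited values are linear intensities, 1 per probe set and array; how the authors summarised probes is not stated. The arrays shared a mean of 497 once 2% of values was trimmed at both ends, a sign of scaling. Of 45037 probe sets, 34945 had 1 gene symbol, 932 several and 9160 none; 34741 matched the gene table (GRCm38.p6) by Entrez identifier. Intensities were transformed to log2(intensity + 16), which understates differences of dim genes. A gene was its brightest probe set by mean over the arrays, and was tested when at least 1 array reached that array's median (10864 genes). Called means 2-fold or more. The steps were tested on simulated data with the same noise at every intensity. The simulated shift of the ribosomal protein genes was larger than the medians found here, so shifts of the observed size were not tested.

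The members and lists were chosen with earlier results of these data known. The text names members past 2-fold, the 8 highest and 8 lowest by mean line difference, the 4 most different each way between lines, the 5 brightest, those below the filter, fixed stalk, anaemia and paralogue genes, and up to 4 of each other list by mean difference; Eef1a1, Xist and Eif2s3y, Rps3a1, Fau, Rpl35, Rps10 and Rps18 were named besides. Alternatives were quantile normalization, centring, cyclic loess (limma 3.58.1, R 4.3.3), no filter, filters at percentiles 75 and 90, the median of probe sets, plain _at probe sets, pseudocounts of 1 and 64, limits of 1.2-fold, 1.5-fold and 3-fold, and the annotation's own symbols. Python 3.11.15, numpy 2.4.6 and pandas 2.3.3 were used.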

Additional observations from a re-analysis of the deposited data

Results flagged for a closer look

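Rps4l lay on opposite sides of wild type in the lines, at -0.42 in Line 6 and 0.94 in Line 3 on the log2(intensity + 16) scale, both past 1.2-fold. With a single array for each line, this difference was not tested, and the gene was read on 1 probe set with intensities of 78.9 to 227.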

How the results depend on the processing

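No paired analysis was possible because each genotype had 1 array. No replicate could be left out for the same reason, and the lack of detection calls leaves dim values undecided. A median counts as moved when it shifts by 0.1 or more. Centring on array medians, which lowers Line 6 by 0.24 and Line 3 by 0.04, moved the Line 6 medians to -0.13 for the ribosomal protein genes (-0.12 large subunit, -0.13 small subunit), -0.078 for mitochondrial ribosomal genes, -0.12 for elongation factors, -0.13 for assembly factors, -0.24 for mTORC1 and MYC genes, -0.11 for p53 targets and -0.17 for proliferation genes. It moved Line 3 minus Line 6 to 0.24 (0.25 and 0.21), 0.46, 0.26, 0.48, 0.28, 0.17 and 0.13 in the same order. The p53 list also moved in Line 3 to 0.028 with cyclic loess, to -0.0098 with the median of probe sets and to -0.14 with plain _at probe sets; in Line 6 to -0.081 with plain _at probe sets and to -0.041 with the filter at percentile 90, where Line 3 minus Line 6 was 0.075. That filter gave 0.30 for mitochondrial ribosomal genes and 0.044 for mTORC1 and MYC genes in Line 3. Members past 2-fold in Line 3 numbered 1 without a filter, where Rpl3l counts, and 1 with a pseudocount of 1, which was Rps4l. Rps4l did not count between the lines with either stricter filter, with a 3-fold limit and without the 4 paralogues, which left 0 genes. At 1.2-fold 5 members passed in Line 6, 8 in Line 3, 6 between the lines and 3 in both lines. Of all genes, 27.3% were higher and 18.5% lower by that limit in Line 6, 37.4% and 21.1% in Line 3, and 22.6% and 16.6% between the lines. At 1.5-fold 4 members passed in Line 3. Shares of all genes at 1.5-fold, and at 1.2-fold in both lines, are not given here. The 11 members below a mean of 10000, an alternative chosen after seeing the data like that without paralogues, had medians of 0.39 in Line 3 and 0.16 between the lines (0.31 and 0.16 large subunit, 0.39 and 0.16 small subunit). The other 336 values of these results stayed within their limits. For medians the limit of 0.1 is larger than the gaps of 0.05 and 0.04 between ribosomal protein genes and all genes, so such gaps can change within it.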

Other observations

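Probe sets that the annotation pairs with several symbols, at least 1 of which fits the ribosomal pattern, were outside the comparisons above, and no gene is named from them. Of 84 genes of the pattern in the gene table, 28 were on such probe sets alone and 10 were paired with none. There were 110 such probe sets, and 105 passed the filter. Their median differences were 0.11 in Line 6, 0.13 in Line 3 and 0.04 between the lines, on the log2(intensity + 16) scale, and 94, 92 and 69 of the 105 lay above 0 on the deposited scaling, where 57.6%, 60.6% and 56.5% of all genes tested did. In each comparison 1 passed 2-fold, against 4.98%, 8.03% and 2.29% of all genes, at -3.19 in Line 6, -1.11 in Line 3 and 2.72 between the lines. The probe set past 2-fold in Line 6 was not the one past 2-fold in Line 3, so none passed in both lines.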
